A study of Mus musculus with 51 samples.

Results

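The genes described here encode the machinery that builds, cuts and anchors actin filaments while a macrophage engulfs a particle. They were given as a list of 42 genes and found by the platform's gene symbols, and the rule for finding them uses no measured difference. For each gene the probe set with the highest mean log2 signal over all arrays, called the main probe set below, stood for the gene, and 38 of the 42 genes had one among 12393 genes named in this way. Actr2, Arpc3 and Diap1 had no probe set under these symbols, and both probe sets of Arpc1b also carried a second symbol, so these 4 genes were not analysed here. A larger number of probe sets, 87 in all, carried a member's symbol, and 25 members had more than 1. Actb is a special case, because 3 actin control probe sets of the array carry its symbol too. The control for its 3′ end was brighter on average (mean log2 signal 14.17) than the probe set used here (13.88), and the controls were kept out of the tests and serve below as a check.

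The cells were alveolar macrophages, which patrol the air spaces and are the first to meet inhaled particles, and were harvested from mouse lungs after instillation of conidia, the spores of the mould Aspergillus fumigatus. Donor mice were C57Bl/6, called WT below, or gp91phox-/-, called KO, and the latter carry a disrupted gene for a membrane part of the NADPH oxidase, which makes the oxidative burst, in all their cells. In WT there were 7 groups of 4 arrays, namely untreated at 0 h and, at both 2 h and 4 h, mock instillation, the e6 dose and the e7 dose of conidia, plus 1 group of 2 arrays given polystyrene beads for 4 h. The same 7 conditions without beads had 3 arrays each in KO, so that 51 arrays fell into 15 groups, 30 of them WT and 21 KO. The doses e6 and e7 differ by a factor of 10, no number of beads was given, and the strain background of the KO mice was not stated in the labels. For mock-treated WT mice at 4 h the treatment field speaks of conidia, against the titles, which were followed. The titles call the arrays biological replicates but do not say how many mice stood behind each, so p-values measure the spread between arrays as labelled. All values are the deposited array signals on the log2 scale, differences are log2 differences ± standard error from limma, and a gene was called when its Benjamini-Hochberg adjusted p over 22626 probe sets was under 0.05.

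Actin monomers are kept ready by profilin and the thymosins, and polymerise where a receptor at the membrane starts the signal. Cdc42 switches on WASP and N-WASP, which in turn switch on the Arp2/3 complex, and this complex grows branches from existing filaments and pushes the membrane around the particle as a phagocytic cup. Capping proteins stop filament growth, cofilin and gelsolin cut filaments, coronins regulate Arp2/3 and the turnover of branches, and talin, vinculin, ezrin and moesin tie filaments to integrins and the membrane.

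Cybb, the gene disrupted in KO mice, served as a check of the labels: its WT values started at 10.59 and its KO values ended at 9.06. Whether its probe set lies in the disrupted part was not checked here. The mean of 12 alveolar macrophage markers lay between 12.17 and 12.92 on every array, and Siglecf, Marco and Chil3 were bright throughout. Of the facts that bear on results below, the first is that 3 WT arrays at 4 h (e6 array 4, e7 array 3 and mock array 3) stood apart by neutrophil markers, with a mean of 11 markers of 7.88 to 9.57 against 4.33 to 6.43 on the other 27 WT arrays. On KO arrays this mean lay between 4.78 and 7.24. Not every marker set the 3 arrays apart: S100a8 (12.45 to 13.75 against at most 9.11) and S100a9 (10.59 to 12.91 against at most 7.03) did, while Csf3r, Ltf and Camp overlapped with the other WT arrays. The next is that the 3′ signal of Gapdh exceeded its 5′ signal by 2.79 to 5.70 (log2) on the WT 2 h e7 arrays and by 5.10 and 5.82 on the beads arrays, against 1.28 to 1.99 on the WT 2 h mock arrays. The last is that e7 array 3 of WT at 4 h held the lowest value of 16.4% of all genes. Batches were not given in the labels, so genotype and any batch cannot be told apart.

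The genes varied little. The group means of a typical member spanned 0.74 over the 15 groups (median of 38), compared with 1.35 for all genes, and the median SD between arrays of a group was 0.22 against 0.42. For 26 of the 38 members the span of the group means was under 1. The main probe sets were bright, with 37 of 38 above the median gene by mean signal, and the part of brightness in the small spread was not tested. The narrowest spans, from 0.34 to 0.53, were those of Cdc42, Capza1, Arpc2, Arpc5, Tmsb10, Lcp1, Cfl1, Actg1, Arpc1a, Capzb, Msn, Capza2 and Actb, some of which were still called in a comparison below. Marcks stood at the other end with a span of 4.54, followed by Vcl with 2.54, Marcksl1 with 2.16 and Wasl with 1.99.

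**Figure D1:**
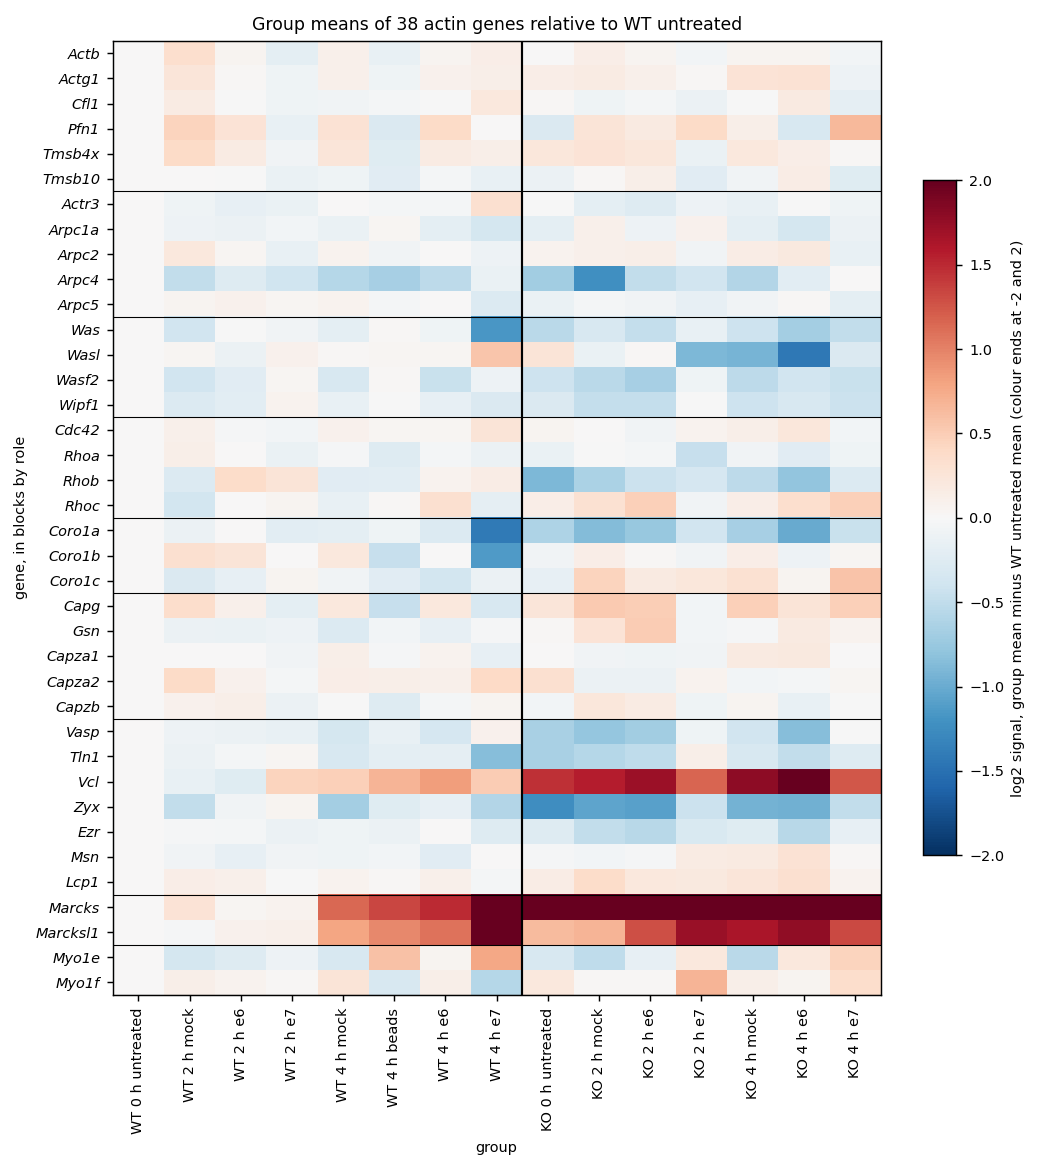
Group means of the 38 genes minus the WT untreated mean, as log2 signal, with genes in rows by role and the 15 groups in columns, WT left of the line and KO right of it. Most rows stay pale, Marcks and Vcl are raised across all KO groups, and Coro1a, Coro1b and Was are lowest in WT at 4 h with e7 conidia. The colour ends at -2 and 2, so Marcks, which spans 4.54, is clipped.

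Many actin genes are known targets of serum response factor, which binds a motif called the CArG box. Some of its cofactors sense the pool of free actin. The box was searched by its usual degenerate form on both strands of the window from 250 bases before to 50 bases after each gene's RefSeq start (GRCm38.p6). It occurred in 4 of the 35 measured members with a window (11.4%) and in 488 of 27025 genes (1.81%), or 173 of the 9888 genes named on the array (1.75%). These 4 windows are shown because 2 of the genes, Vcl and Myo1e, turn up among the changed members below, with the box in capitals.
Actg1: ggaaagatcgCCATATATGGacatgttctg
Arpc4: CCTAATTTGGtgcccaacct
Myo1e: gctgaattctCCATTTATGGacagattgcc
Vcl: cccactatgcCCTTATAAGGagcgccccgc
The windows lie at chr11:120348566-120348595 on the minus strand for Actg1, chr6:113377863-113377882 on the plus strand for Arpc4, chr9:70207308-70207337 on the plus strand for Myo1e and chr14:20929161-20929190 on the plus strand for Vcl. Counted from the gene start, with bases before it negative, the box begins at -90 in Actg1, -250 in Arpc4, -32 in Myo1e and -227 in Vcl. A match is a description of the letters only. The table held no window for Actb, Coro1b and Marcks.

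In WT macrophages at 2 h, 1 member, Actb, the cytoplasmic beta-actin, was lower with e7 conidia than with mock, and none was higher. Called probe sets made up 1.61% of all those tested in this comparison, and 1 of 38 members is near that share. Actb read 13.64, 13.71, 13.62 and 13.58 on the e7 arrays and 14.18, 14.26, 14.43 and 13.82 on the mock arrays, a difference of -0.53 ± 0.10 (adjusted p = 0.00479). All 4 e7 arrays lay below all 4 mock arrays, and mock array 4 was the lowest of its group. The mock mean of 14.17 was also the highest of all group means of Actb, and the e7 mean of 13.64 the lowest. The mean was 13.84 in untreated WT mice and 13.90 with e6 at 2 h, so the difference depends in part on a high mock group. In a bulk sample, fewer cells of a type and less RNA per cell cannot be told apart. The groups were apart for 4 of 38 members, against 11.1% of all probe sets. The call was lost after quantile normalization, where the difference was -0.21, and in a fit of these groups alone. With the 3′ to 5′ ratio of Gapdh as a covariate the call stayed just under the threshold (-0.49 ± 0.11, limma adjusted p = 0.0481). Without mock array 4, which lay nearest to the e7 arrays, 5 members and 591 probe sets were called.

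The actin controls of the array show how position along the transcript moves with this comparison. Between e7 and mock at 2 h in WT, the 3′ control differed by -0.44, the middle control by -0.69 and the 5′ control by -2.01. Beads against mock at 4 h differed by -0.24 at the 3′ end and by -3.13 at the 5′ end. The difference was thus larger the nearer the probes lay to the 5′ end, and its part in the lower Actb signal was not tested. The second Actb probe set, much dimmer at a mean of 8.51, differed by -1.29 ± 0.36 and was not called (adjusted p = 0.0571). At 4 h the groups overlapped, since Actb was 13.87, 13.96, 14.00 and 14.04 with e7 and 13.91, 14.13, 13.89 and 13.82 with mock, a difference of 0.03 ± 0.10 with a 95% interval from -0.17 to 0.23. In KO the e7 arrays read 13.78, 13.81 and 13.77 against 13.98, 14.03 and 13.91 with mock at 2 h, all 3 below, a difference of -0.18 ± 0.11 (adjusted p = 0.313). In KO at 4 h they read 13.84, 13.71 and 13.82 against 14.03, 13.83 and 13.81, a difference of -0.10 ± 0.11 (adjusted p = 0.915), and the groups overlapped.

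**Figure D2:**
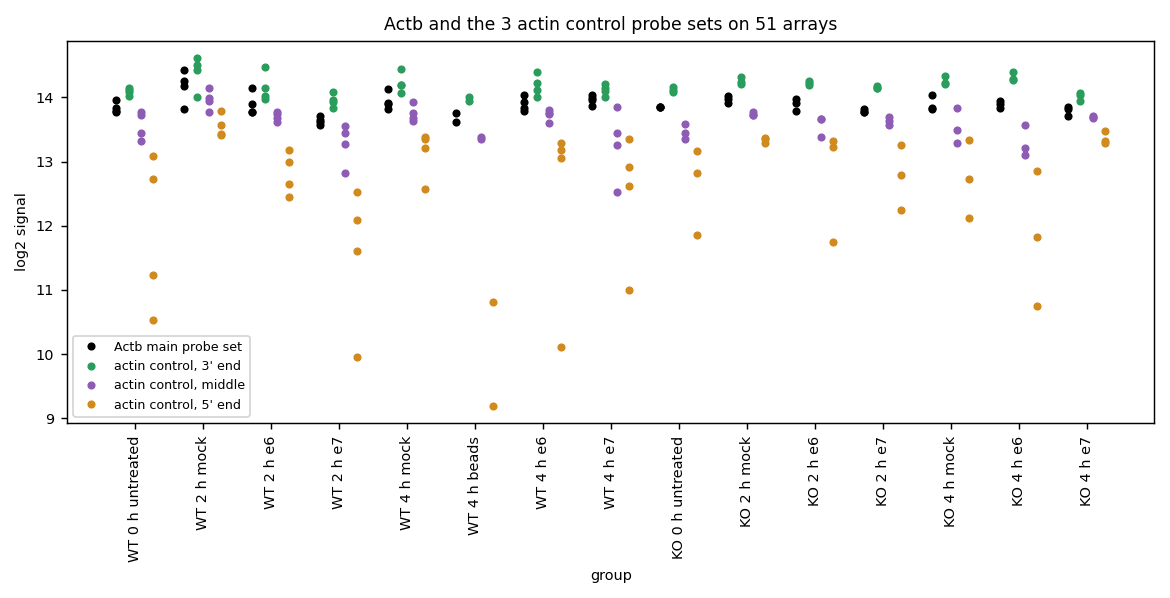
Log2 signal of the main Actb probe set and of the 3 actin control probe sets on each of the 51 arrays, by group, 1 point per array. The 5′ control ranges from 9.20 to 13.78 and is low on both beads arrays and on WT 2 h e7 arrays, while the main probe set stays between 13.58 and 14.43.

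Rhob, which is known as an immediate-early gene, was higher on average with e7 conidia than with mock in all 4 settings, but passed the test in none. In WT at 2 h it read 10.95, 10.90, 11.03 and 11.26 with e7 and 10.09, 10.38, 10.78 and 10.77 with mock, a difference of 0.53 ± 0.22 (adjusted p = 0.223), with every e7 array above every mock array. In WT at 4 h it read 11.36, 10.83, 10.27 and 11.24 against 10.47, 10.28, 10.70 and 10.73, a difference of 0.38 ± 0.22 (adjusted p = 0.285). E7 array 3 was the lowest of these 8 arrays and the other 3 e7 arrays lay above all mock arrays. In KO it read 10.83, 10.43 and 10.07 against 10.10, 10.20 and 10.14 at 2 h, a difference of 0.30 ± 0.26 (adjusted p = 0.483), and 10.34, 10.47 and 10.73 against 10.44, 10.05 and 10.28 at 4 h, a difference of 0.25 ± 0.26 (adjusted p = 0.908). The KO groups overlapped at both times.

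At the lower dose nothing was called in WT among the members. With e6 against mock at 2 h, 0 of 38 members and 0% of all probe sets were called by limma, and unadjusted p was under 0.05 for 2 members and 945 probe sets. At 4 h the same counts were 0 of 38 and 0.00884%, with unadjusted p under 0.05 for 1 member and 1104 probe sets. The arrays of the dose and mock were apart for 1 of 38 members at 2 h, against 3% of probe sets, and for none at 4 h, against 2.8%. The e7 and e6 doses at 2 h did not differ for any member or probe set by the adjusted test (0 of 38 and 0%), with unadjusted p under 0.05 for 4 members and 1588 probe sets, and the doses were apart for 3 of 38 members, against 4.39%.

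WT macrophages at 4 h with e7 conidia gave the largest set of changes after exposure. Coro1a, Coro1b and Was, which encodes WASP, fell, the class I myosin Myo1e rose, and the actin monomer genes and linkers showed no called change. Of 38 members 3 were called higher and 6 lower, together 23.7% of the members beside 15.5% of all probe sets and 17.5% of genes. The members' median difference was -0.0038 and that of all genes -0.085.

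Both called coronins lay far below mock on 2 of the 4 e7 arrays. Coro1a, the coronin of leukocytes, read 12.16, 10.72, 9.95 and 12.84 with e7 and 12.44, 12.38, 12.67 and 13.01 with mock, a difference of -1.21 ± 0.31 (adjusted p = 0.00678). Coro1b read 11.69, 10.54, 9.14 and 12.16 with e7 and 12.34, 12.32, 12.18 and 12.10 with mock, a difference of -1.35 ± 0.31 (adjusted p = 0.0027). For both genes e7 arrays 2 and 3 were low, array 1 lay below the mock arrays by less, and array 4 lay among them. Coro1c, the widely expressed relative, did not follow, with a difference of -0.04.

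Among the nucleation promoting factors, Was and Wasl moved in opposite directions. Was, which encodes WASP of blood cells, read 8.69, 8.08, 8.33 and 9.55 with e7 and 9.40, 9.69, 9.55 and 9.88 with mock, a difference of -0.96 ± 0.24 (adjusted p = 0.00483). Wasl, which encodes the related N-WASP, read 10.85, 11.08, 11.10 and 10.43 with e7 and 10.40, 10.50, 10.26 and 10.15 with mock, a difference of 0.54 ± 0.19 (adjusted p = 0.0439). In each case array 4 overlapped with mock and the other 3 e7 arrays did not. Of the other 3 Wasl probe sets 1 differed in the opposite direction, by -0.18.

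In the Arp2/3 complex, Actr3, its actin-related core subunit, read 13.14, 13.55, 13.79 and 13.00 with e7 and 13.12, 13.05, 13.00 and 13.03 with mock, a difference of 0.32 ± 0.11 (adjusted p = 0.041). Of its other 2 probe sets 1 was called (0.46) and 1 was not (0.080, adjusted p = 0.768), and the call of the main one was lost after quantile normalization (0.28) and with the 3′ to 5′ covariate (0.27). Arpc5, a smaller subunit, read 12.81, 12.84, 12.82 and 13.15 with e7 and 13.23, 13.40, 13.29 and 13.13 with mock, a difference of -0.36 ± 0.10 (adjusted p = 0.0122). The 2 subunits thus moved in opposite directions, by 1.25-fold and 1.28-fold, and array 4 overlapped with mock for both. Capza1, a subunit of the capping protein, read 12.55, 12.73, 12.73 and 12.75 with e7 and 13.04, 12.96, 13.02 and 12.89 with mock, a difference of -0.29 ± 0.08 (adjusted p = 0.0117), and here all 4 e7 arrays lay below all mock arrays.

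The class I myosins, which link membrane and actin at the cup, also split. Myo1e read 7.76, 7.86, 7.55 and 6.95 with e7 and 6.20, 6.41, 6.28 and 6.85 with mock, a difference of 1.09 ± 0.27 (2.14-fold, adjusted p = 0.005), and its other 2 probe sets were higher too without being called (0.75 and 1.61). All 4 e7 arrays lay above all 4 mock arrays. The beads arrays, at 7.31 and 7.37, also lay above the mock arrays for Myo1e, by 0.91 ± 0.33 (adjusted p = 0.149). Myo1f read 10.49, 9.37, 9.04 and 10.74 with e7 and 10.70, 10.79, 10.59 and 10.86 with mock, a difference of -0.83 ± 0.26 (adjusted p = 0.028), with arrays 2 and 3 low as for the coronins. Over all members the groups were apart for Capza1 and Myo1e alone, 2 of 38, compared with 9.67% of probe sets.

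**Figure D3:**
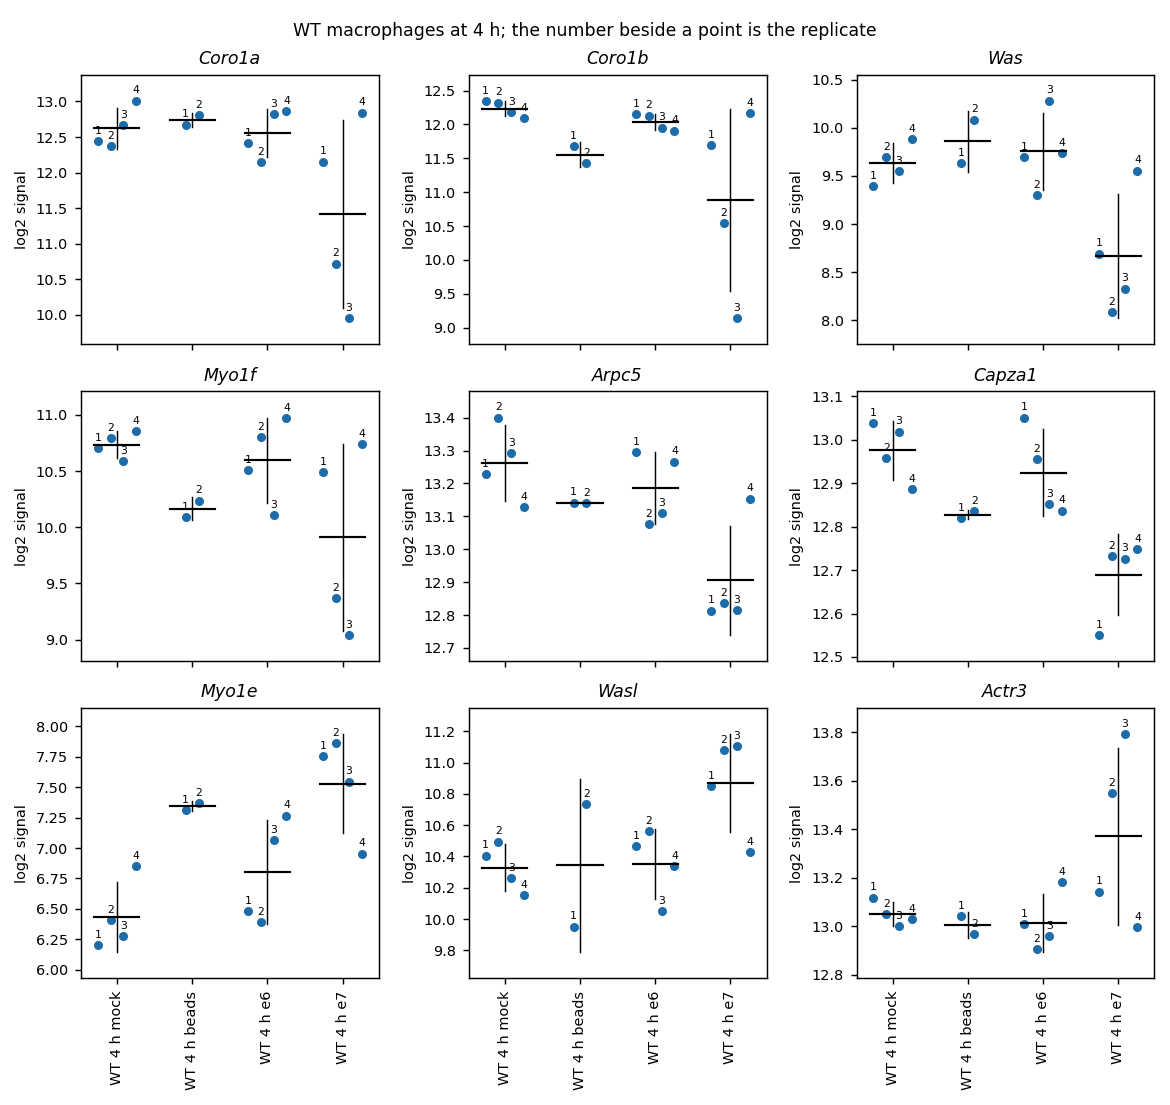
Log2 signal of the 9 genes called between e7 conidia and mock in WT macrophages at 4 h, on each array of the 4 WT groups at 4 h, with the replicate number beside each point, the mean as a bar and the SD as a line. E7 arrays 2 and 3 are low for Coro1a, Coro1b and Myo1f and high for Actr3, and array 4 lies with the mock arrays for all but Capza1 and Myo1e.

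These calls rest on few arrays. They also rest on the spread shared by all groups. In a fit of the 2 compared groups alone, 0 of 38 members and 0 probe sets were called, against 3512 probe sets in the main fit. Without e7 arrays 2 and 3 together, 0 of 38 members and 204 probe sets were called. The differences became -0.13 for Coro1a, -0.31 for Coro1b, -0.51 for Was, -0.12 for Myo1f and 0.92 for Myo1e. Without the 3 arrays of high neutrophil markers 2 members and 1165 probe sets were called, and of the 9 genes above only Myo1e kept its call (limma, adjusted p = 0.0495). Was (-0.88, adjusted p = 0.0601), Coro1b (-0.79, adjusted p = 0.0549) and Capza1 (-0.28, adjusted p = 0.0626) were among those that lost theirs. Leaving out single arrays gave 5 called members without e7 array 2, 4 without e7 array 3, 5 without mock array 2 and up to 13 without e7 array 4. The count of all called probe sets moved too, with 1964, 1622 and 2468 in the first 3 of these fits. Over all fits without 1 array it ran from 1622 to 5305. Coro1a lost its call without e7 array 2 (-0.97) or array 3 (-0.72), and Myo1f without e7 array 2 (-0.65) or array 3 (-0.54) or mock array 2 (-0.81) or 4 (-0.79). Coro1b kept its call without each single array, with -0.77 without e7 array 3. Arpc5 lost its call without e7 array 3 (-0.33) or mock array 2 (-0.31), and Actr3 and Wasl lost theirs without most single arrays, with differences of 0.18 (without e7 array 3) to 0.45 and of 0.46 to 0.68. Was, Capza1 and Myo1e kept theirs without each single array. On e7 array 3 the mean neutrophil marker level was 7.88, that of e7 array 2 was 5.89, and the ratio of Gapdh 3′ over 5′ was 4.52 and 3.21. With this ratio as a covariate Coro1a (-1.15, limma adjusted p = 0.0119) and Coro1b (-1.17, limma adjusted p = 0.00311) kept their calls. Beyond these fits the part of both measures in the coronin values was not tested.

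Compared with the lower dose at 4 h, e7 arrays gave 2 members higher and 6 lower, 21.1% of the members beside 16.4% of probe sets. Coro1b (-1.15 ± 0.31, adjusted p = 0.00853), Coro1a (-1.14 ± 0.31, adjusted p = 0.00946), Was (-1.09 ± 0.24, adjusted p = 0.00159) and Tln1, which activates integrins (-0.68 ± 0.22, adjusted p = 0.0255), were lower, as were Arpc5 (-0.28) and Capza1 (-0.23). Actr3 (0.36 ± 0.11, adjusted p = 0.021) and Wasf2, a WAVE protein that drives lamellipodia (0.35 ± 0.12, adjusted p = 0.0382), were higher. This comparison shares its e7 arrays with the one against mock, so the 2 are not independent. The e6 arrays read 12.41, 12.15, 12.82 and 12.86 for Coro1a, 12.15, 12.13, 11.95 and 11.91 for Coro1b, and 9.70, 9.30, 10.28 and 9.73 for Was. The e7 arrays 2 and 3 lay below all of these values. Tln1 read 9.92, 9.41, 9.18 and 10.59 with e7 and 10.20, 10.33, 10.54 and 10.74 with e6, and Wasf2 read 11.33, 11.27, 11.26 and 10.95 against 10.86, 10.85, 10.51 and 11.20, and both overlapped through e7 array 4. With e6, Actr3 read 13.01, 12.90, 12.96 and 13.18, Arpc5 read 13.30, 13.08, 13.11 and 13.27 and Capza1 read 13.05, 12.96, 12.85 and 12.84. Capza1 alone was apart on every array, 1 of 38 members against 8.04% of probe sets. The count of called members was 0 without e7 arrays 2 and 3 (302 probe sets called) and 4 without the 3 arrays of high neutrophil markers (2333). It was 5 without e6 array 1 (3031) or 3 (2526), 2 without e7 array 2 (2033), 1 without e7 array 3 (1844) and 14 without e7 array 4 (5393).

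Beads are taken up without any fungal signal. Against mock at 4 h, 0 of 38 members and 1.14% of probe sets were called by limma, with unadjusted p under 0.05 for 5 members and 3937 probe sets. The 5 members were Tmsb4x (-0.48 ± 0.16), Myo1e (0.91 ± 0.33), Capg (-0.67 ± 0.27), Wasf2 (0.33 ± 0.15) and Capzb (-0.26 ± 0.12), none with an adjusted p under 0.101. With only 2 beads arrays the groups were apart for 12 of 38 members, against 26.5% of probe sets. Without mock array 4, 1 member and 474 probe sets were called. E7 conidia against beads gave 2 lower members, beside 3.59% of probe sets: Was, at -1.19 ± 0.29 (adjusted p = 0.0197) with beads arrays of 9.63 and 10.08, and Coro1a, at -1.32 ± 0.38 (adjusted p = 0.0437) with beads arrays of 12.67 and 12.81. Was lay lower on every e7 array than on both beads arrays, and Coro1a on 3 of 4, and over the list 9 of 38 members were apart, against 17.7% of probe sets. Neither call remained without e7 array 2, e7 array 3 or either beads array (Was -0.97 to -1.42, Coro1a -0.84 to -1.39). Without e7 array 4, 5 members and 2772 probe sets were called.

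In KO macrophages the e7 dose was called for a few members at 2 h and for none at 4 h. At 2 h, Wasf2 rose and Wasl and Rhoa fell, 3 of 38 members beside 8.65% of probe sets. Wasf2 read 11.35, 11.10 and 11.23 with e7 and 10.82, 10.82 and 10.68 with mock, a difference of 0.45 ± 0.14 (adjusted p = 0.0328). Rhoa, which drives actomyosin contraction, read 11.83, 11.77 and 11.84 with e7 and 12.27, 12.31 and 12.19 with mock, a difference of -0.44 ± 0.12 (adjusted p = 0.0185). Wasl read 9.67, 9.55 and 9.0 with e7 and 10.15, 10.28 and 10.10 with mock, a difference of -0.77 ± 0.22 (adjusted p = 0.0235). In each case the 3 e7 arrays lay apart from the 3 mock arrays. That was so for 24 of 38 members, against 38% of all probe sets, in groups of 3. The median over all probe sets in this comparison was 0.26, and 0.01 after quantile normalization, which turned 1382 higher and 575 lower probe sets into 640 and 933. With the 3′ to 5′ covariate 1 member was called (986 probe sets), and without KO 2 h e7 array 3 (688) or mock array 2 (986) none was. Without e7 array 1 (760) or mock array 3 (782), 1 was. Without e7 array 3 the differences were -0.56 for Wasl, 0.45 for Wasf2 and -0.46 for Rhoa.

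The Wasl values of KO depend on the probe set. The other 3 Wasl probe sets differed by 0.44, 0.67 and 1.21 at 2 h between e7 and mock, opposite in sign to the main one and none called. The main probe set was also lower in mock-treated KO mice at 4 h than in untreated ones, at 9.52, 9.45 and 9.18 against 10.47, 10.68 and 10.57, a difference of -1.19 ± 0.22 (adjusted p = 0.00287). It was the only called member there, 1 of 38 beside 1.2% of probe sets, and the other 3 probe sets differed by 0.23, -0.0063 and 0.12. Groups were apart there for 6 of 38 members, against 22.2% of probe sets. At 4 h the main probe set was higher with e7 than with e6, at 9.85, 9.96 and 10.24 against 8.60, 8.67 and 9.35, a difference of 1.14 ± 0.22 (adjusted p = 0.00643), again the only called member beside 0.897% of probe sets, while 22 of 38 members were apart, against 27.9%. That call was lost without KO 4 h e6 array 1 (1.01) or e7 array 3 (1.03). The direction for Wasl in KO therefore rests on its main probe set.

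The remaining KO comparisons with conidia gave little. With e6 against mock, 0 of 38 members were called at 2 h (0% of probe sets) and at 4 h (0.0796%) by limma, with unadjusted p under 0.05 for 1 and 4 members and for 865 and 1719 probe sets, and groups apart for 1 and 8 members, against 8.95% and 14.2%. With e7 against mock at 4 h, 0 of 38 members and 0.00442% of probe sets were called, with unadjusted p under 0.05 for 4 members and 1587 probe sets, and 13 of 38 members were apart, against 16.3%. Coro1a read 12.58, 12.25 and 12.31 with e7 and 12.22, 12.13 and 12.15 with mock there, a difference of 0.21 ± 0.36 with an interval from -0.52 to 0.95. With e7 against e6 at 2 h, Wasf2 was higher (0.59 ± 0.14, adjusted p = 0.00842), and Wasl (-0.92 ± 0.22, adjusted p = 0.00922), Gsn, the gelsolin gene (-0.57 ± 0.18, adjusted p = 0.0443), and Rhoa (-0.41 ± 0.12, adjusted p = 0.0303) were lower, 4 of 38 beside 7.06% of probe sets. The e6 arrays of KO read 10.68, 10.62 and 10.60 for Wasf2, 10.51, 10.01 and 10.46 for Wasl, 12.24, 12.33 and 12.11 for Rhoa and 12.06, 12.36 and 13.06 for Gsn. For Gsn the e7 arrays were 11.96, 11.76 and 12.06 and reached the lowest e6 array, while the other 3 genes did not overlap. Groups were apart for 16 of 38 members, against 31.2% of probe sets. The Gsn difference was -0.28 without e6 array 3, and 4 of its other 5 probe sets differed in the opposite direction. The count was 2 without e6 array 2 (994 probe sets called) or e7 array 2 (881) and 1 without e7 array 1 (578) or 3 (597).

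Whether the genotypes respond differently was tested directly. The response to conidia of KO minus that of WT was called for 0 of 38 members in each of 4 tests by limma, beside 0% of probe sets for e6 and 1.45% for e7 at 2 h, and 0.00442% for e6 and 0.19% for e7 at 4 h. Unadjusted p was under 0.05 for 0, 6, 1 and 7 members and for 929, 3602, 1370 and 3879 probe sets, in the same order. For e7 at 4 h the response of Coro1a was 1.42 ± 0.48 higher in KO than in WT (adjusted p = 0.119), that of Coro1b 1.26 ± 0.47 higher (adjusted p = 0.162), that of Myo1f 1.07 ± 0.40 higher (adjusted p = 0.165) and that of Was 0.88 ± 0.37 higher (adjusted p = 0.202), with 95% intervals above 0 before adjustment. So the fall of these genes in WT was not shown to differ from the response in KO. Myo1e, called in WT (1.09), differed by 0.98 ± 0.32 in KO without being called (adjusted p = 0.428), and the difference between the genotypes was -0.11 with an interval from -0.96 to 0.73. Without WT 4 h e7 array 4, 4 members and 2389 probe sets were called in this test.

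The response to e7 at 4 h minus that at 2 h was called in WT for Actb (0.56 ± 0.14, adjusted p = 0.025) and Was (-1.27 ± 0.34, adjusted p = 0.0353), 2 of 38 beside 2.73% of probe sets, and in KO for Wasl (1.40 ± 0.30, adjusted p = 0.0133), 1 of 38 beside 1.7%. At 2 h in WT the Was arrays read 9.38, 9.42, 10.27 and 9.96 with e7 and 9.51, 9.14, 9.51 and 9.63 with mock, overlapping groups with a difference of 0.31 ± 0.24. The WT count fell to 0 without 2 h e7 array 4, 2 h mock array 2 or 3, 4 h e7 array 2 or 4 h mock array 4, with 169 to 386 probe sets called. It fell to 1 without 2 h e7 array 3, 2 h mock array 1, 4 h e7 array 3 or 4 h mock array 2, with 268 to 384 probe sets. Without 4 h e7 array 4 it rose to 9, with 2408 probe sets. Both calls were also lost after quantile normalization, where the values were 0.20 for Actb and -1.10 for Was, and without e7 arrays 2 and 3 of 4 h, where Was was -0.81. Over the fits without 1 array the Actb value lay between 0.48 and 0.68 and that of Was between -1.57 and -1.08. The Actb value takes in the 2 h mock group, whose Actb mean was the highest of all groups. The KO call was lost without 2 h e7 array 3 (1.2) or 4 h mock array 3 (1.30).

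Mock instillation itself changed few members. Against untreated mice, 0 of 38 were called in WT at 2 h (0.00442% of probe sets), in WT at 4 h (0.0133%) and in KO at 2 h (0.00442%) by limma, and only Wasl in KO at 4 h. Unadjusted p was under 0.05 for 5, 3 and 3 members and for 2238, 1797 and 1750 probe sets in the first 3 comparisons. Groups were apart for 4, 0 and 11 members in these, against 8.41%, 5.86% and 18.1% of probe sets.

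The widest contrast was between the genotypes. Averaged over the 7 conditions that both genotypes had, 8 members were higher in KO and 9 lower, 44.7% of the 38 beside 33.4% of all probe sets and 35.0% of genes. Marcks, a membrane protein that binds actin and phosphoinositides, was higher by 2.73 ± 0.28 (adjusted p = 7.77e-10), or by 2.52 with signals under 50 set to 50, and Vcl, the vinculin of adhesion sites, 2.53-fold higher (1.34 ± 0.12, adjusted p = 1.08e-11). No other called member differed by more than 0.61. None of the 6 actin monomer genes and binders and none of the 5 measured Arp2/3 subunits was called, with differences from -0.06 to 0.05 and from -0.17 to 0.05.

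Marcks and Vcl were higher in KO than in WT before any exposure. In untreated mice Marcks read 8.72, 8.22 and 8.94 in KO and 5.71, 4.84, 5.20 and 5.50 in WT, a difference of 3.31 ± 0.74 (adjusted p = 0.00919). The WT values were dim, with a mean of 5.31, below a signal of 50, and the difference was 2.97 ± 0.70 (adjusted p = 0.0139) with signals under 50 set to 50. Vcl read 8.69, 8.51 and 8.42 in KO and 7.20, 7.12, 6.87 and 7.09 in WT, a difference of 1.47 ± 0.31 (2.77-fold, adjusted p = 0.00455). Zyx, the zyxin of focal adhesions and stress fibres, read 9.08, 9.21 and 10.04 in KO and 10.23, 10.60, 11.16 and 10.78 in WT, a difference of -1.25 ± 0.27 (adjusted p = 0.00772). Rhob read 9.63, 9.80 and 10.20 in KO and 10.67, 10.39, 11.12 and 10.94 in WT, a difference of -0.91 ± 0.24 (adjusted p = 0.0356). These 4 genes were the called members in untreated mice, 4 of 38 beside 1.99% of probe sets, and for all 4 the genotypes did not overlap. The groups were apart for 7 of 38 members, against 14.8% of probe sets. The 3′ signal of Gapdh exceeded its 5′ signal by 2.37 to 4.25 on the WT arrays and by 1.41 to 3.95 on the KO arrays here. With this ratio as a covariate all 4 calls were kept, and its part was not tested beyond that. Leaving out KO untreated array 1 ended all 4 calls, with differences of 3.27 for Marcks, 1.39 for Vcl, -1.07 for Zyx and -0.78 for Rhob. Without KO array 2, 2 were called, without KO array 3, 8 were, and Rhob also lost its call without WT array 1 (-0.94), 3 (-0.79) or 4 (-0.85). The called probe sets without KO array 1, 2 and 3 were 114, 183 and 835.

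**Figure D4:**
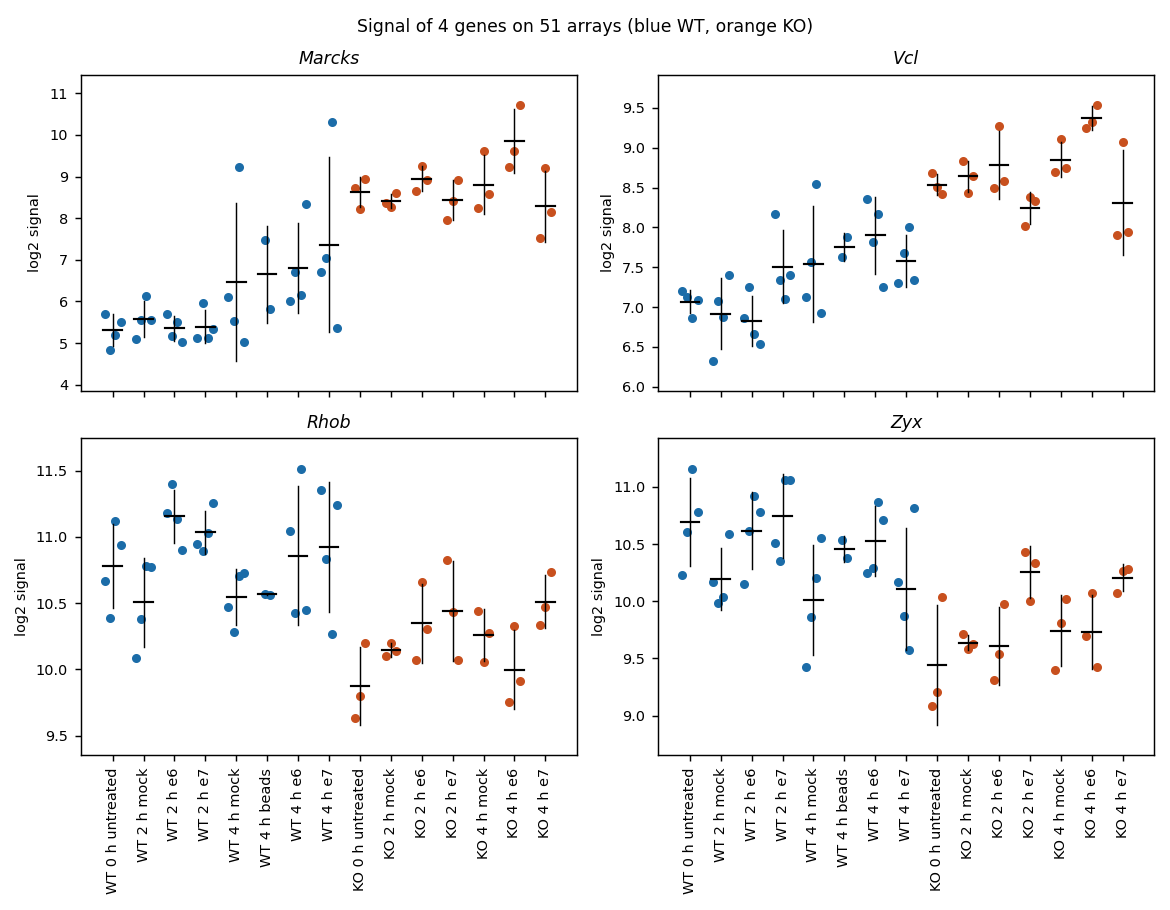
Log2 signal of Marcks, Vcl, Rhob and Zyx on each of the 51 arrays by group, WT in blue and KO in orange, with the group mean as a bar and the SD as a line. Marcks and Vcl are higher in KO in every condition, and 3 WT arrays at 4 h reach 8.35 to 10.32 for Marcks, within the KO range of 7.52 to 10.72.

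Over all arrays Marcks lay between 4.84 and 10.32 in WT (median 5.63, n = 30) and between 7.52 and 10.72 in KO (median 8.67, n = 21). It was higher in KO in all 7 conditions, by 0.93 to 3.60, and called in 5, but not at 4 h with mock (2.34 ± 0.74, adjusted p = 0.0633) or with e7 (0.93 ± 0.74, adjusted p = 0.437). It was called with e6 at 4 h (3.05 ± 0.74, adjusted p = 0.00428). Each of these 3 WT groups at 4 h holds 1 array of high neutrophil markers, and on these arrays Marcks read 8.35 to 10.32 against 4.84 to 7.48 on the other 27 WT arrays. Without these 3 arrays the difference over the 7 conditions was 3.07. Marcksl1, the second gene of this family, read 10.14 to 10.54 on those 3 arrays, above its whole KO range of 6.20 to 9.02, and 5.62 to 8.11 on the other WT arrays. Its main probe set was 0.69 ± 0.30 higher in KO (adjusted p = 0.0685) and was not called, while 2 of its other 3 probe sets were (0.46 and 1.70). All 6 Marcks probe sets were called higher in KO, by 1.81 to 2.73.

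Vcl lay between 6.33 and 8.55 in WT (median 7.28) and between 7.91 and 9.53 in KO (median 8.65). It was higher in KO in all 7 conditions, by 0.72 to 1.96, and called in 5, with e7 at 2 h (0.73 ± 0.31, adjusted p = 0.125) and at 4 h (0.72 ± 0.31, adjusted p = 0.104) below the threshold. Its second probe set was dim (mean log2 signal 3.30) and differed by -0.25 ± 0.41 without being called. The Vcl window printed above holds a CArG box, as does that of Actg1, which did not differ between the genotypes (0.05). Of the 4 genes with a box, Vcl was the one called between genotypes.

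The other called members differed by less. Rhob (-0.60 ± 0.09, adjusted p = 2.41e-06) and Rhoa (-0.12 ± 0.04, adjusted p = 0.0229) were lower in KO and Rhoc (0.30 ± 0.10, adjusted p = 0.0168) was higher, while Cdc42 was not called. Rhob was lower in KO in all 7 conditions (-0.91 to -0.29), with arrays from 9.63 to 10.83 in KO and from 10.09 to 11.51 in WT. Of the 4 nucleation promoting factors and partners 3 were lower, Wasl (-0.58 ± 0.08, adjusted p = 1.83e-07), Wasf2 (-0.23 ± 0.05, adjusted p = 0.000367) and the WASP-binding Wipf1 (-0.20 ± 0.06, adjusted p = 0.00875). Wasl arrays lay between 8.60 and 10.68 in KO (median 9.96) and between 9.95 and 11.10 in WT (median 10.39), overlapping ranges. By condition its difference turned from 0.26 in untreated mice and 0.13 with e6 at 2 h, both not called, to -1.48 with e6 at 4 h, and it was called lower in 4 of 7. The Wasl value again belongs to its main probe set, since the other 3 differed by 0.06 to 0.38.

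Among elongation and linker genes the directions were mixed, with 3 higher and 3 lower of 7. Beside Vcl, moesin (Msn, 0.17 ± 0.04, adjusted p = 0.00399) and the bundling protein L-plastin (Lcp1, 0.17 ± 0.04, adjusted p = 0.00154) were higher, and Zyx (-0.61 ± 0.10, adjusted p = 1.71e-05), the filament elongator Vasp (-0.35 ± 0.08, adjusted p = 0.000897) and ezrin (Ezr, -0.30 ± 0.05, adjusted p = 7.81e-06) were lower. Zyx arrays lay between 9.08 and 10.43 in KO (median 9.81) and between 9.42 and 11.16 in WT (median 10.45). Ezrin and moesin, 2 related linkers of actin to the membrane, thus differed in direction. For Zyx and Ezr a second, dimmer probe set differed by 0.31 and 0.13 and was not called. In KO, Coro1a was lower (-0.36 ± 0.13, adjusted p = 0.0273) and Coro1c higher (0.36 ± 0.10, adjusted p = 0.00376), and Capg, which caps filaments (0.29 ± 0.09, adjusted p = 0.0119), and Gsn (0.25 ± 0.06, adjusted p = 0.00182) were higher. Coro1a was lower in KO in 6 of 7 conditions and called in none of these, and higher with e7 at 4 h (0.96 ± 0.34, adjusted p = 0.0466), where WT arrays 2 and 3 were low. Without those 2 arrays the difference over the 7 conditions was -0.51.

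**Figure D5:**
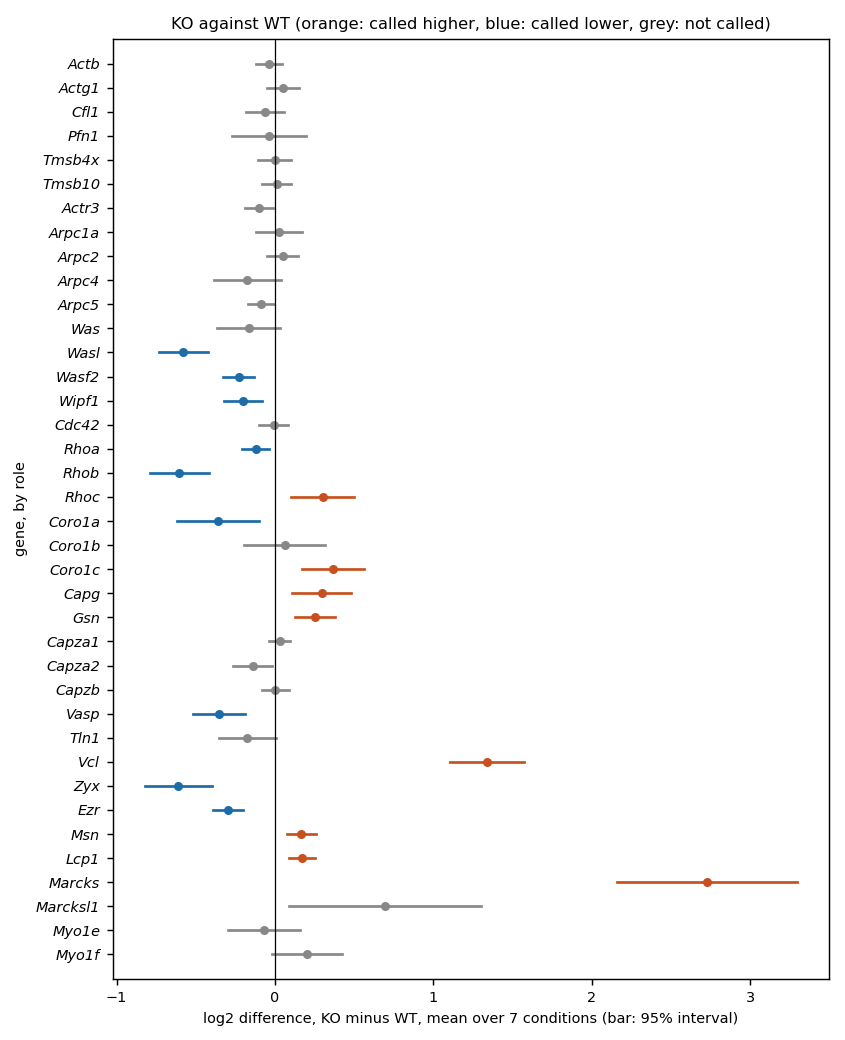
Log2 difference KO minus WT averaged over 7 conditions for each of the 38 genes, by role, with its 95% interval. Orange marks the 8 genes called higher in KO, blue the 9 called lower and grey the 21 not called, and Marcks (2.73) and Vcl (1.34) lie far to the right of the rest.

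The condition-wise counts of called members between genotypes were 4 untreated, 3 with mock, 5 with e6 and 2 with e7 at 2 h, and 2 with mock, 7 with e6 and 6 with e7 at 4 h. The matching shares of probe sets were 1.99%, 2.25%, 2.04%, 8.89%, 4.06%, 17.5% and 15.6%. Some markers of other cells were also called between genotypes over the 7 conditions, where 33.4% of all probe sets were called. Called higher in KO were 4 of 6 T and NK cell markers (median 1.27), 3 of 6 monocyte and dendritic cell markers (0.62) and 5 of 11 of endothelium and stroma (0.37). Of 11 neutrophil markers 1 was higher and 1 lower. The lists are short, and their shares were not tested against that of all probe sets. Alveolar macrophage markers had 4 higher and 2 lower of 12. Lung epithelium had 2 higher and 2 lower of 14, and of 3 B cell and 2 erythroid markers 0 were called. The T and NK cell markers were dim, with mean log2 signals from 1.97 to 4.07, below a signal of 50. Most markers of monocytes, dendritic cells, endothelium and stroma lay below that signal too. The T and NK cell mean lay between 2.08 and 3.96 on WT arrays and between 2.01 and 5.63 on KO arrays, and the part of such cells in the values of Marcks and Vcl was not tested. The split of all probe sets between genotypes moved from 4945 higher and 2617 lower to 2847 and 3721 after quantile normalization, with a shift of the median by -0.15, while all 17 member calls kept their side of the threshold and their direction.

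A wider list of 65 actin pathway genes, 58 of them measured, was counted in the same comparisons. In WT at 4 h with e7 against mock, 4 of 58 were higher and 12 lower, beside 15.5% of probe sets. Nck1, an adaptor upstream of N-WASP (1.07), Pak2, a kinase activated by Cdc42 and Rac (0.56), Swap70 (0.50) and Rac1 (0.32) were higher. The lower ones were led by Cap1, which recycles actin monomers (-1.37), Arhgdib (-1.16), Rac2, the Rac of blood cells (-1.13), and Lsp1 (-1.12). Rac1 and Rac2 thus differed in direction, but for both the e7 and mock groups overlapped. These calls rest on the same e7 arrays as those of the coronins. Without e7 arrays 2 and 3 only 204 probe sets were called in this comparison, and in a fit of the compared groups alone 0 were. Against e6, with the same e7 arrays, 4 of 58 were higher and 17 lower, beside 16.4% of probe sets, and Nck1 (1.10) and Swap70 (0.81) led the higher ones and Tpm1, a tropomyosin whose means lay below a signal of 50 in both groups, Cap1 (-1.32), Lsp1 (-1.12) and Arhgdib (-1.03) the lower ones. Against beads 3 of 58 were higher and 1 lower, beside 3.59% of probe sets, with Nck1 (1.05) and Swap70 (0.78) among the higher. In KO at 2 h with e7, 6 of 58 were called, near the 8.65% of probe sets. Of these 4 were higher, namely Wasf1, Tpm1, the crosslinker Flna (0.82) and Vav1, an exchange factor for Rac (0.47), and 2 were lower, Arhgdib (-0.84) and the actin depolymerising Dstn (-0.32). Wasf1 and Tpm1 were dim, with a mean of 2.73 and 5.45 on the mock arrays, both below a signal of 50, so the size of their difference is not given. Between genotypes over 7 conditions 10 of 58 were higher and 14 lower in KO, beside 33.4% of probe sets, led by Fscn1, the bundling protein fascin (2.13 ± 0.17, adjusted p = 1.97e-12), Itgam (1.91), Tpm1 (1.11) and Vav3 (0.56) on one side and Flna (-0.40), Pak2 (-0.33), Arhgdib (-0.30) and Svil (-0.25) on the other. Fscn1 read 5.60 to 8.01 in WT (median 6.64) and 7.58 to 10.60 in KO (median 8.79), and was called in untreated mice too (2.44), with Vav3 (1.0) higher and Flna (-0.74) lower. The signals of Itgam, from -0.55 to 5.94, and of Tpm1, from 3.47 to 7.38, were dim.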

How the data were processed

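RNA of alveolar macrophages was hybridised to Affymetrix mouse arrays after a two-cycle biotin labelling of 100 ng total RNA, per the labels' protocols. The deposited values are intensity signals on a linear scale that the authors scaled to a trimmed mean near 500 on every array, as the values show. The submitters' processing notes name GCOS and RMA without version or role. Signals were taken to log2 with no pseudocount, and 64 control probe sets of 22690 were left out. A model with 15 group means was fitted over all 51 arrays with limma 3.58.1 in R 4.3.3 (lmFit, eBayes), and p-values were two-sided and Benjamini-Hochberg adjusted over 22626 probe sets per comparison. Probe sets with several gene symbols were named for none. Array depth has no counterpart here, and the number of arrays limits the precision.

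The members and gene lists were chosen with earlier results of these data known. Array values are given for up to 6 called members in each direction per comparison (by ranges where a comparison takes all arrays), and for Actb and Rhob in every e7 against mock comparison, and up to 4 called pathway genes in each direction are named, largest first. Alternatives were quantile normalization, a floor of 50, removal of dim probe sets (mean log2 under 7), a fit of the compared groups alone, array weights, a 3′ to 5′ covariate, the replicate number as a block, other probe sets and leaving out each array. The fit was run on simulated data in which the spread of a probe set was the same in all groups. Such data cannot show how the fit behaves when groups differ in spread. The replicate numbers did not pair the arrays. Promoter windows were read from RefSeq (GRCm38.p6).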

Additional observations from a re-analysis of the deposited data

Results flagged for a closer look

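Among the groups of 4 arrays, 13 of 266 pairs of a member and a group held 1 array far from the other 3, and chance sets about 1 in 20 groups apart. In WT at 2 h, Actr3 read 12.71 on e6 array 2 (others 12.94 to 12.95), Rhoc 10.63 on e6 array 3 (others 10.07), Pfn1 10.11 on mock array 1 (others 10.45 to 10.51) and Capza1 12.84 on mock array 3 (others 12.87). On WT 2 h mock array 4, Wasf2 read 11.03 (others 10.88 to 10.90) and Lcp1 13.36 (others 13.63 to 13.68). On WT 4 h mock array 4, Capg read 12.07 (others 12.51 to 12.56) and Tmsb4x 13.73 (others 14.13 to 14.19). With e7 at 4 h, Arpc5 read 13.15 on array 4 (others 12.81 to 12.84) and Capza1 12.55 on array 1 (others 12.73 to 12.75). On 2 of the 3 WT arrays at 4 h with high neutrophil markers a member stood apart: Vasp read 11.77 on e6 array 4 (others 10.77 to 10.93) and Marcksl1 10.40 on mock array 3 (others 5.62 to 6.37). Marcksl1 read 6.69 on WT untreated array 4 (others 6.19 to 6.20).

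The response to e7 conidia differed between 4 h and 2 h, by the test of that difference, for Actb (0.56) and Was (-1.27) in WT and for Wasl (1.40) in KO.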

How the results depend on the processing

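Over the results given, 2202 alternative values were computed, both differences of genes and counts of called members. Of these, 1855 either kept direction and side of the threshold or, for counts, stayed equal or within 1.5 times. Another 228 kept direction but lost the call, 32 changed sign and 87 counts moved by over 1.5 times or to or from 0. Each member called in the genotype mean entered with 58 settings, 49 of them without 1 array, so these totals lean on that mean. In WT e7 against mock at 4 h, the call was kept in 4 of 17 settings for Wasl, 6 of 17 for Actr3 and 14 of 17 for Was. The setting with the widest effect was the fit of the compared groups alone, which has fewer arrays behind its spread: it left 0 called members in WT for e7 against mock at 2 h and 4 h, e7 against beads, e7 against e6 at 4 h and the 4 h minus 2 h response, and 0 in KO for e7 against mock at 2 h, mock against untreated at 4 h, e7 against e6 at both times and the 4 h minus 2 h response, and 2 for KO against WT untreated. In that fit, WT e7 against mock, beads and e6 at 4 h also had 0 called probe sets. The cause was not tested for this or the other settings. In the counts of members that follow, the called probe sets of the same setting stand in brackets. For e7 against mock at 2 h in WT, quantile normalization gave 0 (389), the floor of 50 gave 4 (612), removal of dim probe sets 4 (963), array weights 7 (1342) and the replicate block 4 (581). In KO at 2 h the floor gave 7 (2708), removal of dim probe sets 5 (1300), the 3′ to 5′ covariate 1 (986), array weights 12 (4672) and the replicate block 7 (2226). For e7 against beads the floor gave 4 (3235), the covariate 5 (1777) and the replicate block 4 (1593). For beads against mock the floor (2635) and the replicate block (662) gave 1 each. For KO e7 against e6 at 4 h the floor gave 7 (2626), removal of dim probe sets 2 (130), array weights 6 (938) and the replicate block 2 (258). Array weights gave 7 (2907) for KO e7 against e6 at 2 h, 11 (2062) for KO against WT untreated and 2 (243) for WT mock against untreated at 2 h. For the genotype difference in the e7 response they gave 1 (1211) at 2 h and 2 (968) at 4 h, where removal of dim probe sets gave 1 (799). For the WT 4 h minus 2 h response quantile normalization gave 1 (398), a gene other than Actb and Was, and the covariate 4 (1384). In the replicate block no comparison of 19 had all same-numbered pairs correlated over 0.1, and 13 of 51 arrays were closest to an array of their own number, so the numbers were not taken as pairing.

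Both added settings were chosen after seeing the data. Leaving out WT 4 h e7 arrays 2 and 3 gave 0 called members for e7 against mock, beads and e6 and for the 4 h minus 2 h response. The called probe sets were 204, 200, 302 and 80 in that order. Leaving out the 3 arrays of high neutrophil markers gave 2, 0, 4 and 0 members and 1165, 376, 2333 and 212 probe sets. Leaving out 1 array at a time gave 1 to 5 called members for WT e7 at 2 h, 4 to 13 for WT e7 at 4 h, 0 to 3 for KO e7 at 2 h, 0 to 1 for beads, 0 to 5 for e7 against beads, 1 to 14 for e7 against e6 in WT at 4 h, 1 to 3 and 0 to 1 for the same in KO at 2 h and 4 h, 0 to 4 for the genotype difference in the e7 response at 4 h, 0 to 9 and 0 to 1 for the 4 h minus 2 h response in WT and KO, 0 to 8 for KO against WT untreated and 17 to 19 for the mean over 7 conditions. In that mean, Coro1a lost its call with the replicate block (-0.23) and Capg with the covariate (0.15). The called probe sets moved in the same fits without 1 array, from 63 to 591 for WT e7 at 2 h and 1622 to 5305 at 4 h. For KO e7 at 2 h they ran from 688 to 1274, for e7 against beads from 81 to 2772 and for WT e7 against e6 at 4 h from 1844 to 5393. They ran from 5 to 2389 for the genotype difference at 4 h, 169 to 2408 for the WT 4 h minus 2 h response and 114 to 835 in untreated mice.

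Most sign changes came from other probe sets of a gene. For Wasl they gave -0.18 in WT e7 against mock at 4 h, 0.44, 0.67 and 1.21 in KO e7 against mock at 2 h, 0.23 and 0.12 in KO mock against untreated at 4 h, 0.31, 0.14 and 1.13 in KO e7 against e6 at 2 h, -0.22 and -2.07 at 4 h, -0.47, -0.59 and -1.23 in the KO 4 h minus 2 h response, and 0.10, 0.061 and 0.38 in the genotype mean. For Gsn in KO e7 against e6 at 2 h they gave 0.086, 0.058, 1.86 and 2.08. In the genotype mean they gave 0.078 for Rhoa, -0.25 for Vcl, 0.31 for Zyx and 0.13 for Ezr, and for Vcl in untreated mice -1.21. Actb in e7 against mock, near 0 outside WT at 2 h, turned to -0.011 (quantile normalization), -0.0082 (without mock array 4, with up to 0.093 without mock array 2) and -0.086 (other probe set) in WT at 4 h, to 0.042 (quantile normalization) and 0.10 (other probe set) in KO at 2 h and to 0.15 (quantile normalization) in KO at 4 h.

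Quantile normalization moved the median of all probe sets by -0.26 in KO e7 against mock at 2 h, -0.16 in KO mock against untreated at 4 h, -0.15 in beads against mock, 0.23 in e7 against beads and -0.22 and 0.14 in KO e7 against e6 at 2 h and 4 h. For beads against mock it turned 125 higher and 132 lower probe sets into 152 and 320, and for e7 against beads 309 and 503 into 439 and 306. For KO mock against untreated at 4 h 248 and 23 became 81 and 62, for KO e7 against e6 1078 and 519 became 612 and 878 at 2 h and 75 and 128 became 315 and 157 at 4 h. For the genotype difference in the e7 response at 2 h 268 and 59 became 81 and 92, and for the KO 4 h minus 2 h response 71 and 313 became 170 and 124.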
